A study of Mus musculus with 2 samples.

Results

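A set of 10 genes of the circadian clock was followed gene by gene and isoform by isoform in mouse adrenal gland: Per1, Per2, Per3, Cry1, Cry2, Arntl, Clock, Nr1d1, Nr1d2 and Dbp. They were picked by gene name in the deposited transcript tables, and all 10 had reads, among 17707 annotated mouse genes with at least 1 read in either library. The samples form 1 group, adrenal gland of female B6CASTF1/J mice (an F1 hybrid strain) aged 18 to 20 months, for which the labels name no treatment and no second genotype or age. The group holds 2 long-read RNA libraries, each from 1 µg of total RNA, labelled as biological replicates 1 and 2, under separate biosamples but the same donor entry. Whether they come from separate animals, and at which time of day the glands were taken, is not given in the sources used here.

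In nearly every mammalian cell, the proteins CLOCK and ARNTL (also called BMAL1) bind DNA as a pair and switch on the Per and Cry genes, whose products return to the nucleus and block that pair. A second loop runs through Nr1d1 and Nr1d2, which encode the REV-ERB repressors of Arntl, and Dbp is a transcription factor gene driven directly by the same pair. The levels of most of these RNAs rise and fall over the day, with Arntl and Dbp high at opposite phases, and in the adrenal gland the clock takes part in the daily rhythm of glucocorticoid release.

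Replicate 1 held 1412947 reads on annotated genes and replicate 2 held 933963. Of these, 593 and 460 were on the 10 clock genes, or 420 and 493 CPM (reads scaled to a common total of reads on annotated genes). In long-read data 1 read stands for 1 cDNA molecule, so CPM compares genes without a division by length, although long RNAs are less often read from end to end. The detection limit, set at 3 reads, was 2.12 CPM in replicate 1 and 3.21 CPM in replicate 2. The 5 adrenal cortex markers summed to 64639 and 64117 CPM, and the 5 medulla markers to 11991 and 9406 CPM, so both parts of the gland were present. Skeletal muscle markers were found almost only in replicate 1 (5 of 5 detected, 700 CPM in sum, against 1 of 5 and 1.07 CPM with Acta1, Ckm, Myh4 and Tnnt3 at 0), and the 5 fat markers, all detected in both, summed to 3544 and 2187 CPM. These bulk libraries cannot tell fewer cells of a type from less RNA per cell. Intervals below are exact 95% intervals that cover counting error only.

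The sequences that the isoform results turn on are given first, as the transcripts of the GENCODE M21 annotation hold them (mm10, 5′ to 3′). In Arntl, many reads joined exon 12 to a point 3 bases into exon 13. The first line shows the annotated join on the plus strand of chromosome 7, with the 3 skipped bases (113299187 to 113299189) in capitals, and the second line shows the join of those reads.
Arntl-201 across exon 12 and exon 13: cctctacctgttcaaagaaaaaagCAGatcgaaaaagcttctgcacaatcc
The same stretch with the later acceptor: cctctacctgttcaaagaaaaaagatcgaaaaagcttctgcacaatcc
A 21-base exon that M21 gives to Arntl-206, at 113281402 to 113281422 of chromosome 7, was included in a minority of reads and is shown in capitals between its neighbours.
Arntl-206 small exon with its flanks: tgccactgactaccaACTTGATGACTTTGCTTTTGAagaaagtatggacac
For Dbp, the annotated transcripts Dbp-201 and Dbp-204 differ at the end of exon 1, and the capitals mark the first bases of the exon that follows, exon 2 in Dbp-201 and exon 3 in Dbp-204.
Dbp-201 across exon 1 and exon 2: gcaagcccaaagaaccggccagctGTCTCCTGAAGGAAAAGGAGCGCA
Dbp-204 across exon 1 and exon 3: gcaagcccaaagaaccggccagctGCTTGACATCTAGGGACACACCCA
For Nr1d1 and Per1, most reads did not reach the 5′ end of the gene. The lines below show where the most abundant shortened model began, with capitals from its first base: on the minus strand of chromosome 11 at 98770426 for Nr1d1, inside exon 5, and on the plus strand of chromosome 11 at 69106458 for Per1, inside exon 19.
Nr1d1-201 around the start of the shortened chain: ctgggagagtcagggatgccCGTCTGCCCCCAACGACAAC
Per1-201 around the start of the shortened chain: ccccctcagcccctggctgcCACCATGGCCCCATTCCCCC

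Mean levels of the 10 genes ran from 1.95 to 170 CPM. Dbp was highest, with 275 reads in replicate 1 and 136 in replicate 2, or 170 ± 34.7 CPM (mean ± SD, n = 2, as for all levels here). It lay at place 1211 of all genes by mean CPM. Arntl had 70 and 76 reads (65.5 ± 22.5 CPM), and Nr1d1 had 65 and 76 reads (63.7 ± 25.0 CPM). The ranges of the activator gene and of its repressor's gene overlapped over all models. When only annotated transcripts were counted, CPM was taken over the smaller total of reads on annotated transcripts (1090470 and 683991). Arntl then stood at 37.1 CPM and Nr1d1 at 12.6 CPM, below Nr1d2 (21.5 CPM) and Cry2 (15.9 CPM). On that total Dbp stood at 199 CPM, so these values compare genes with each other and not with the levels over all models. Cry1, one of the cryptochrome repressor genes, had 63 and 38 reads (42.6 ± 2.76 CPM). Nr1d2, the second REV-ERB gene, had 37 reads in each library (32.9 ± 9.50 CPM), and Cry2 had 33 in each (29.3 ± 8.47 CPM). Below these stood the period genes and Clock. Per2 had 17 and 26 reads (19.9 ± 11.2 CPM), Per1 12 and 21 reads (15.5 ± 9.89 CPM), and Clock, the partner of Arntl, 17 and 16 reads (14.6 ± 3.61 CPM). Per3 was near the limit of detection, with 4 reads and 1 read (1.95 ± 1.24 CPM).

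In this order, the ranges spanned by the libraries did not overlap between Dbp and Arntl, between Nr1d1 and Cry1, between Cry1 and Nr1d2, or between Clock and Per3. The gaps on either side of Cry1 were small: the lowest Nr1d1 value was 46.0 CPM against a highest Cry1 value of 44.6 CPM, and the lowest Cry1 value was 40.7 CPM against a highest Nr1d2 value of 39.6 CPM, all inside each other's counting intervals. The neighbours Arntl and Nr1d1, Nr1d2 and Cry2, Cry2 and Per2, Per2 and Per1, and Per1 and Clock overlapped and cannot be ordered from these data. Arntl exceeded its partner Clock in both libraries, with 49.5 against 12.0 CPM in replicate 1 and 81.4 against 17.1 CPM in replicate 2.

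**Figure D1:**
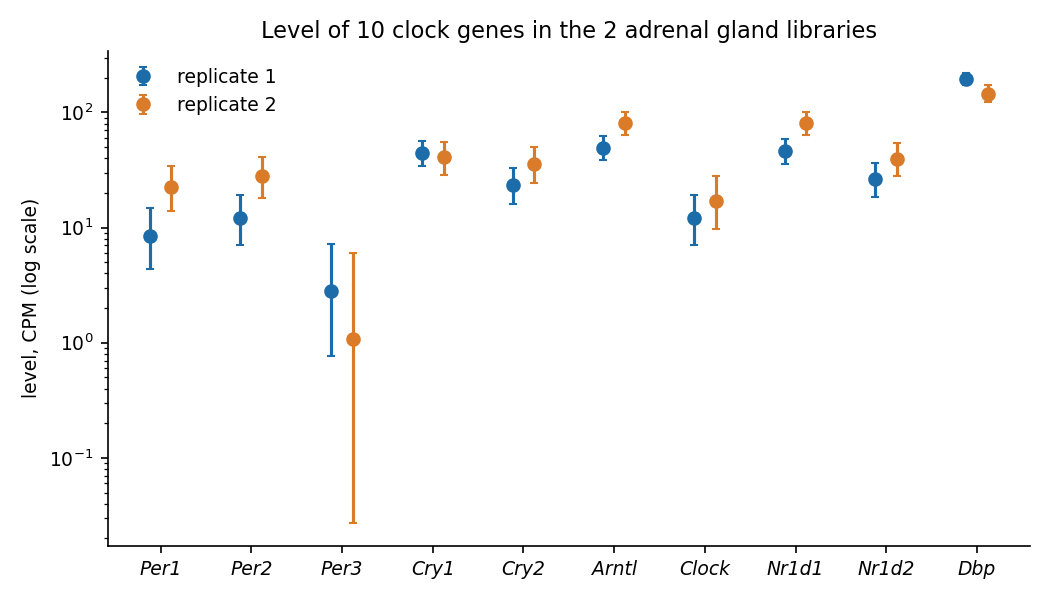
Level of each clock gene in replicate 1 (blue) and replicate 2 (orange), in CPM on a log axis, with exact 95% Poisson intervals. Dbp stands highest at 195 and 146 CPM and Per3 lowest at 2.83 and 1.07 CPM, and the other 8 genes lie between 8.49 and 81.4 CPM.

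The libraries were compared gene by gene with an exact two-sided binomial test on TMM-scaled totals, Benjamini-Hochberg adjusted over the 11068 genes with at least 10 reads. This compares 2 libraries and not conditions, and its p-values measure counting error, not the spread between animals. Of the 9 clock genes tested (Per3 had too few reads), 3 passed an adjusted p of 0.05, beside 12.4% of all genes tested. Higher in replicate 2 were 2 of the 9 (6.2% of all genes) and higher in replicate 1 was 1 (6.21% of all genes). At an unadjusted p under 0.05 there were 5 of 9, beside 23.1% of all genes.

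Dbp was the clock gene higher in replicate 1, at 195 CPM against 146 CPM, a ratio of 1.37 (interval 1.11 to 1.69, adjusted p = 0.0289 by the exact binomial test). Nr1d1 went the other way, at 46.0 and 81.4 CPM, 1.73-fold higher in replicate 2 (interval 1.23 to 2.45, adjusted p = 0.0161 by the same exact test). Arntl stood at 49.5 and 81.4 CPM, 1.61-fold higher in replicate 2 (interval 1.15 to 2.25, adjusted p = 0.0436 by the same exact test). Arntl and the gene of its repressor were thus both higher in the library where Dbp was lower. By the same test 3 of 3 tested skeletal muscle markers, 3 of 5 fat markers and 4 of 5 medulla markers were also higher in replicate 1. In each of these lists 0 were higher in replicate 2. Cidea and Fabp4 of the fat list stood at 637 and 637 CPM and at 488 and 483 CPM. The 5 cortex markers were split, 3 higher in replicate 2 and 2 in replicate 1. Of 3 macrophage markers 1 was higher in replicate 2, and of 3 endothelial markers 0 passed. Over all genes 6.2% were higher in replicate 2 and 6.21% in replicate 1. The part of these cell types in the Dbp difference was not tested.

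The 2 period genes with enough reads had the largest ratios but did not pass. Per1 stood at 8.49 and 22.5 CPM, a ratio of 2.59 (interval 1.22 to 5.77, adjusted p = 0.0579 by the exact binomial test). Per2 stood at 12.0 and 27.8 CPM, a ratio of 2.26 (interval 1.18 to 4.44, adjusted p = 0.0615 by the same exact test). For the other 4 the intervals included 1: Cry2 at a ratio of 1.48 (0.885 to 2.47), Nr1d2 at 1.48 (0.912 to 2.40), Clock at 1.39 (0.658 to 2.93) and Cry1 at 0.892 (0.580 to 1.36). Of the 9 genes, 7 had a higher value in replicate 2, with Dbp and Cry1 the exceptions, and their median log2 ratio was 0.56, beside 0.0046 over all genes tested.

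These calls rest on counting error alone. When edgeR's exact test was run with the spread between the libraries over all genes, a common coefficient of variation of 21.5%, 0 of the 9 clock genes passed in either direction, beside 0.244% of all genes (0.108% with the higher value in replicate 2 and 0.136% in replicate 1), and 0 had an unadjusted p under 0.05 (the smallest was 0.0741, for Per1). No share over all genes was computed for that unadjusted count, here or for the lists below. Scaling the libraries to the ERCC spike-in RNAs, RNAs of known amount added to each sample, lowered every log2 ratio by 0.33. It left Dbp as the only clock gene past the binomial test. Arntl, closest to the threshold, had adjusted p-values from 0.0294 to 1.0 over its alternatives and missed the threshold in 5 of 10, and Nr1d1 missed it in 4 of 10.

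**Figure D2:**
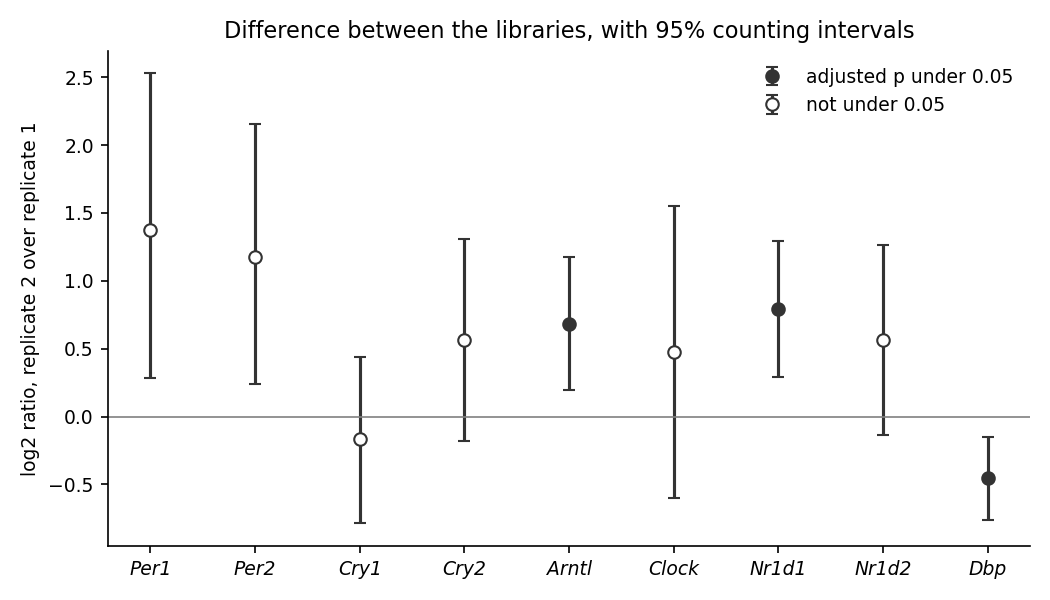
Log2 ratio of replicate 2 over replicate 1 for the 9 clock genes tested, after TMM scaling, with exact 95% counting intervals; filled points passed an adjusted p of 0.05 in the binomial test. Arntl and Nr1d1 lie above 0 and Dbp below it, and the intervals of Per1 and Per2 are wide.

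How completely the RNAs were read differed sharply between the members. A read was taken as annotated when its transcript model followed the whole intron chain of an M21 transcript. Other classes are incomplete splice matches (ISM), which follow part of an annotated chain, NIC and NNC models, which join annotated sites in another way or use other sites, and genomic models, which lack clear splicing. Over the 10 genes, 390 of 593 reads in replicate 1 (65.8%, interval 61.8 to 69.6%) and 220 of 460 in replicate 2 (47.8%, interval 43.2 to 52.5%) were annotated, 56.8 ± 12.7%. Over all genes the shares were 77.2% and 73.2%. Dbp, with 46.4% of the clock reads in replicate 1 and 29.6% in replicate 2, carried much of the sum. Without it, 131 of 318 reads (41.2%) and 110 of 324 reads (34.0%) were annotated.

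Dbp and Cry1 were read mostly whole. Dbp had 259 of 275 reads (94.2%) and 110 of 136 reads (80.9%) on annotated transcripts, and Cry1 had 58 of 63 (92.1%) and 33 of 38 (86.8%). Models that cover both the start and the stop codon of the reference transcript held 250 and 112 Dbp reads and 61 and 34 Cry1 reads. Arntl had fewer annotated reads, 33 of 70 (47.1%) and 30 of 76 (39.5%), yet 66 and 70 of them covered the whole coding sequence. Most Arntl reads off the annotated chains were thus on long models with another splice pattern.

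In Nr1d1 the shortfall was at the 5′ end. It had 10 of 65 and 11 of 76 annotated reads, although all 65 and 76 covered the stop codon. Only 10 and 12 covered the whole coding sequence. The 4-exon chain whose start is printed above held 33 reads in replicate 1 (50.8%) and 40 in replicate 2 (52.6%), making it the most abundant Nr1d1 isoform in both libraries. It runs over 1124 bases from exon 5 to exon 8 of the 8 exons, and its first base is also the annotated start of Nr1d1-202, an M21 transcript with no coding sequence. Of the reads that covered exon 6 (61 and 66), only 17 and 18 covered exon 5 by at least 50% of its length. The tables do not tell an RNA that starts there from a longer RNA read in part.

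Per1 and Per2, with 23 exons each, were read most often over their last exons, and Per1 almost only there. Per1 had 0 annotated reads of 12 and of 21, and 0 reads covered exons 1 to 16 in either library. A 5-exon chain of exons 19 to 23, 2008 bases long, held 9 of 12 and 11 of 21 Per1 reads. Per2 had 0 of 17 and 1 of 26 annotated reads, and its 5-exon chain of exons 19 to 23 held 5 reads in each library. In replicate 2, 4 or 5 Per2 reads covered each of exons 8 to 19, against 0 to 2 in replicate 1. Per3 had 0 annotated reads: 2 and 1 of its reads covered exons 1 to 3, and 2 reads of replicate 1 covered exons 17 to 21.

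Cry2 and Nr1d2 were mixtures. Cry2 had 14 of 33 and 13 of 33 annotated reads, 12 and 11 of them on Cry2-201 and 2 in each library on the shorter Cry2-202. A single-exon model of 2175 bases inside its last exon held 13 and 9 reads. Nr1d2 had 15 of 37 and 20 of 37 annotated reads, of which Nr1d2-201 held 13 and 17, and single-exon models held 16 and 13. Those 2 genes are 3976 and 4663 bases long as mature RNA.

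Clock, whose reference transcript is 9744 bases long, also gave few whole reads. Its start codon was covered by 1 and 4 reads and its stop codon by 0 and 3. It had 1 of 17 and 2 of 16 annotated reads, and 11 and 8 reads were on single-exon models. The most abundant of these, with 4 and 5 reads, ended 1100 and 1101 bases before the annotated 3′ end, and the 20 bases that follow hold 18 A, against a mean of 5.93 per 20 bases along the transcript. In replicate 2, 2 reads covered the whole Clock coding sequence, and in replicate 1 none of 17 did (interval up to 19.5%), so the libraries cannot be told apart on this.

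Transcript length went with these shares across all genes. Among genes that had 20 or more reads in all, grouped by the length of their longest coding transcript, the median annotated share up to 2000 bases was 87.1% (2423 genes), falling to 53.8% at 4000 to 6000 bases (1752 genes) and to 29.6% above 6000 bases (911 genes). Nr1d1 and Arntl, in the class of 2000 to 3000 bases, both lay below its lower quartile of 61.6% (median 78.6%). Per1 and Per2 lay below the lower quartile of their class, 26.0%, in which 5.25% of genes had 0 annotated reads, while Clock lay between the lower quartile of the longest class, 4.84%, and its median. In the class of 3000 to 4000 bases Cry1 lay above the upper quartile of 83.5% and Cry2 below the lower quartile of 48.8%. Nr1d2, in the class of 4000 to 6000 bases, lay between the lower quartile and the median. Dbp, in the class up to 2000 bases, lay between the median and the upper quartile of 93.6%.

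**Figure D3:**
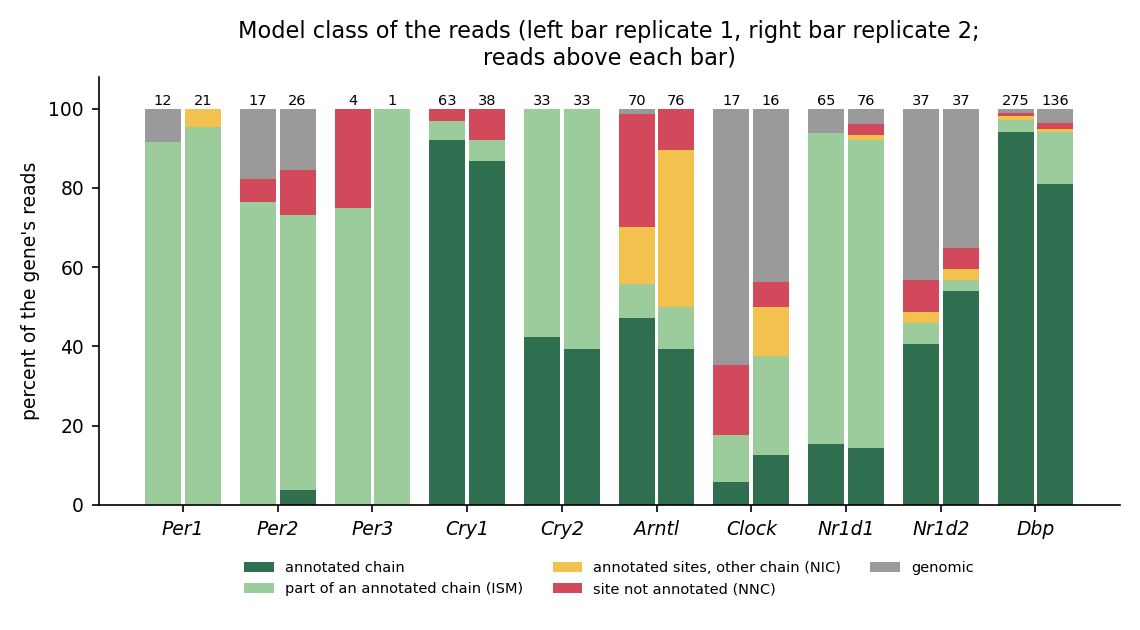
Share of each clock gene's reads in each class of transcript model, as percent, with replicate 1 in the left and replicate 2 in the right bar of each pair and the number of reads above. Dbp and Cry1 are mostly annotated chains (80.9 to 94.2%), Nr1d1, Per1 and Per2 mostly incomplete matches, Clock has the largest genomic share and Arntl the largest NIC and NNC share.

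**Figure D4:**
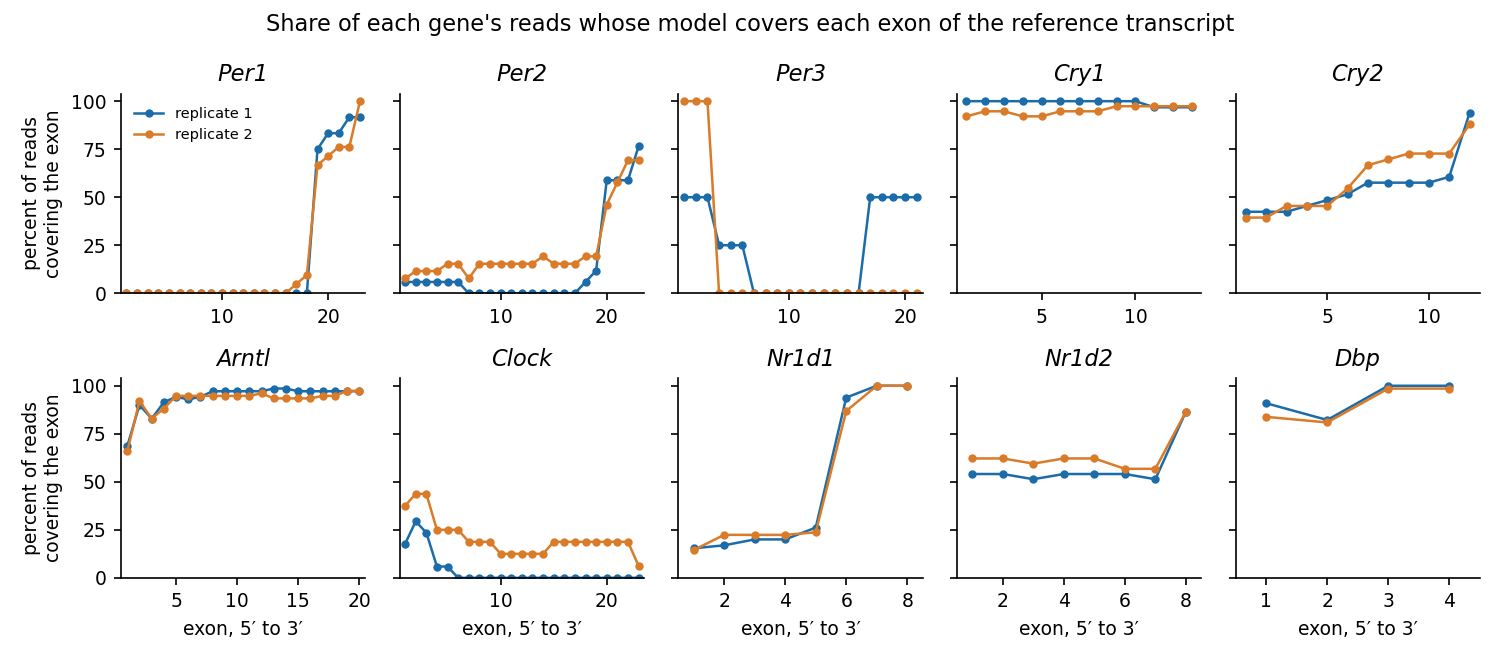
Percent of each gene's reads whose model covers each exon of the reference transcript by at least 50% of its length, from the first to the last exon, in replicate 1 (blue) and replicate 2 (orange). The lines of Cry1 and Arntl are high over nearly all exons, those of Per1 and Nr1d1 rise from low values at exons 19 and 6, and Per3 rests on 4 reads and 1 read.

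The splicing of Arntl varied at several places along the gene. At exon 13, whose first bases are printed above, 18 of 68 reads in replicate 1 (26.5%, interval 16.5 to 38.6%) and 29 of 71 in replicate 2 (40.8%, interval 29.3 to 53.2%) used the acceptor 3 bases downstream, 33.7 ± 10.2%. M21 does not list this intron (chromosome 7, 113295594 to 113299189). The intervals of the libraries overlap. The skipped bases lie inside the coding sequence, and leaving them out shortens it from 1878 to 1875 bases with the frame and the stop codon kept. The most abundant Arntl chain after Arntl-201, with 9 reads in replicate 1 (12.9%) and 19 in replicate 2 (25.0%), differs from Arntl-201 in this acceptor alone among its introns.

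The 21-base exon printed above was included in 6 of 65 reads in replicate 1 (9.23%, interval 3.46 to 19.0%) and 4 of 72 reads in replicate 2 (5.56%, interval 1.53 to 13.6%). It lies between exons 5 and 6 of Arntl-201, inside the coding sequence, and adds 21 bases with the frame kept. Another exon of 141 bases, absent from M21, joined between exons 9 and 10 in 3 reads of replicate 1 (4.62%, interval 0.962 to 12.9%) and 2 of replicate 2 (2.86%, interval 0.348 to 9.94%). Before the exon that holds the start codon, exon 3 was skipped in 3 of 60 reads and 4 of 66 reads (6.06%), and exons 3 and 4 together in 2 of 59 reads (3.39%) and 4 of 66 (6.06%). Each of these 5 events was seen in both libraries.

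Dbp, with 4 exons, had 3 annotated isoforms of note. Dbp-201 held 211 of 275 reads in replicate 1 (76.7%) and 84 of 136 in replicate 2 (61.8%). Dbp-204, which skips exon 2, held 27 and 8 reads. At that exon 27 of 242 reads (11.2%, interval 7.48 to 15.8%) and 8 of 96 reads (8.33%, interval 3.67 to 15.8%) made the skip. The skip removes 411 bases, 975 coding bases becoming 564 with the frame kept. Dbp-205, a transcript that M21 labels as a retained intron, held 21 and 18 reads.

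Intron 1 of Dbp, 843 bases long, was retained in 11 of 226 reads in replicate 1 (4.87%, interval 2.45 to 8.54%) and in 18 of 106 in replicate 2 (17.0%, interval 10.4 to 25.5%). The intervals do not overlap. The counts at intron 5 of Nr1d1 went the other way: 12 reads retained it and 49 spliced it in replicate 1 (19.7%, interval 10.6 to 31.8%). In replicate 2, 0 reads retained it and 59 spliced it (interval up to 6.06%). These counts depend on where the model ends lie. An Nr1d1 chain shared by the libraries, with 8 and 5 reads, had a model of 1423 bases in replicate 1 and 885 bases in replicate 2. The same chain can thus count as retained in replicate 1 and be left out in replicate 2. The contrast at intron 5 therefore cannot be read as a difference in retention. Both introns were picked after their values were seen, and neither difference was tested by itself. The share of Dbp-201 among Dbp reads differed between libraries with an unadjusted p of 0.00236 by Fisher's exact test, but its adjusted p was 0.0748. That test took genes with 20 reads or more per library, and 0 of the 6 clock genes measured passed, beside 2.21% of 6413 genes, and 1 had an unadjusted p under 0.05. The call on Dbp depended on the setting: its adjusted p was 0.0188 in a chi-square test over all isoforms and 0.0496 when each library needed 50 reads or more. Without genomic and ISM models, Fisher's exact test gave Dbp an adjusted p of 0.955.

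**Figure D5:**
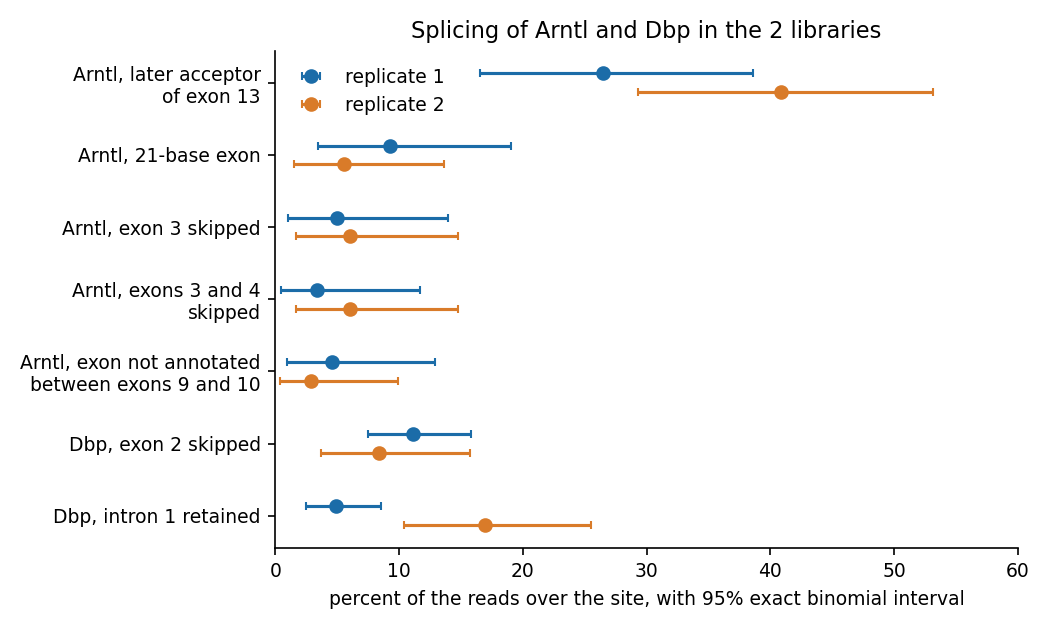
Share of reads over a site that show each splicing event of Arntl and Dbp, as percent with exact 95% binomial intervals, in replicate 1 (blue) and replicate 2 (orange). The later acceptor of Arntl exon 13 stands highest, at 26.5 and 40.8%. Of the events shown, only retention of Dbp intron 1 has intervals that do not overlap (4.87 and 17.0%).

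Several members share their locus with another gene. The 3′ end of Nr1d1 (gene at chromosome 11, 98767932 to 98775333, minus strand) overlaps the end of Thra, a thyroid hormone receptor gene on the other strand. The gene spans overlap by 1075 bases, which take in the last exon of Nr1d1-201 (488 bases) and part of its intron 7. Thra had 47 and 44 reads, of which 40 and 35 overlapped Nr1d1 exons. Among the annotated ones, Thra-201, which reaches into Nr1d1, had 17 and 15 reads, and Thra-202, which ends before it, had 2 and 4. Dbp (chromosome 7, 45705088 to 45710203, plus strand) overlaps Sphk2, a sphingosine kinase gene on the other strand, over 737 bases. Of 44 and 31 Sphk2 reads, 31 and 25 overlapped Dbp exons, and 22 and 21 of those were on genomic models. How the strand of a read was set is not given in the sources used here, so the division of unspliced reads between these partners is uncertain. On the same strand, Per3 lies within the span of Camta1, which had 21 reads in each library, 1 of them over Per3 exons.

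Lists of other genes around the clock were read beside the members, with the same test. Of 12 other clock regulators, 10 were detected and 7 tested, and 0 passed in either direction (1 at an unadjusted p under 0.05, and 0 by edgeR's exact test). Their median log2 ratio was -0.32. Rora, whose product activates Arntl at the sites where REV-ERB represses it, stood at 119 ± 24.7 CPM, Tef, a relative of Dbp, at 51.5 ± 0.192 CPM, Nfil3, the repressor that competes with them, at 45.5 ± 8.32 CPM, and Bhlhe40 at 37.1 ± 3.49 CPM. Rorb and Ciart had 0 reads in both libraries. Dbp thus stood above its relatives Tef and Hlf (4.44 ± 1.73 CPM) in each library.

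Of 12 kinase and ubiquitin ligase genes that act on PER and CRY proteins, 12 were detected and 11 tested, with a median log2 ratio of 0.17. Csnk1d, the gene of a PER kinase, stood at 206 ± 54.5 CPM and was 1.43-fold higher in replicate 2 (interval 1.19 to 1.72). Btrc, of the ligase that marks PER for breakdown, stood at 78.2 ± 39.5 CPM and was the only one that passed with a higher value in replicate 1. Csnk1a1 stood at 191 ± 17.2 CPM and did not pass. Beside the 6.2% and 6.21% of all genes called in each direction, the list had 1 call of 11 each way. Under spike-in scaling 0 were higher in replicate 2 and 2 in replicate 1, beside 259 and 2227 of 11068 genes. The Csnk1d call was thus lost, and edgeR's exact test called 0 (1 at an unadjusted p under 0.05). Csnk1d had more reads than any of the 3 period genes whose products it marks.

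Of 12 chromatin and export partners, 10 were tested, 2 were higher in replicate 2 (6.2% of all genes) and 0 in replicate 1, with a median log2 ratio of 0.27. With spike-in scaling the counts turned to 0 and 2, beside 259 and 2227 of 11068 genes. By edgeR's exact test 0 were called, with 0 at an unadjusted p under 0.05. The pair was Ddb1 (478 ± 95.9 CPM) and Cul4a (384 ± 90.3 CPM), parts of one ubiquitin ligase. Nono stood at 156 ± 26.7 CPM and Hdac3, of the deacetylase that REV-ERB recruits, at 113 ± 11.5 CPM. Of 9 output genes that cycle in many tissues, 7 were tested. Coq10b (83.4 ± 31.9 CPM) was higher in replicate 2 (6.2% of all genes). Nampt (110 ± 35.8 CPM) and Alas1 (1338 ± 94.7 CPM) were higher in replicate 1 (6.21% of all genes). Por (282 ± 19.2 CPM) and Herpud1 (186 ± 0.619 CPM) did not pass, and the median log2 ratio was -0.17. With spike-in scaling 0 output genes were higher in replicate 2 and 4 in replicate 1, beside 259 and 2227 of 11068 genes, so the split depended on the scaling. For this list edgeR's exact test called 0, with 0 at an unadjusted p under 0.05.

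Genes induced by glucocorticoids, as Per1 is too, had the largest list median. All 10 were tested, 6 were higher in replicate 2 (6.2% of all genes) and 0 in replicate 1, with a median log2 ratio of 1.00. Fkbp5, of a glucocorticoid receptor co-chaperone, had 121 and 192 reads (146 ± 84.8 CPM) and was 2.35-fold higher in replicate 2 (interval 1.86 to 2.97). Tsc22d3, which encodes GILZ, had 174 and 236 reads (188 ± 91.6 CPM) and was 2.01-fold higher (interval 1.64 to 2.45). Zbtb16, Dusp1 and the metallothionein genes Mt1 and Mt2 made up the rest of the 6, at ratios of 3.80, 2.34, 1.99 and 2.85. Sgk1 (153 ± 29.1 CPM) and Klf9 (139 ± 21.9 CPM) did not pass. Under spike-in scaling 3 of the 10 passed with a higher value in replicate 2, beside 259 of 11068 genes. In edgeR's exact test 0 passed, with 5 at an unadjusted p under 0.05, a count with no share over all genes to set it against. Of the 9 clock genes tested, 7 had a higher value in replicate 2. Per1 and Per2 were among them, at ratios of 2.59 and 2.26 that did not pass. Whether glucocorticoids bear on these ratios was not tested.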

How the data were processed

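The authors deposited, for each library, a table of transcript models with the count of long reads on each and a matching annotation of their exons; per the file headers and labels the build is mm10 and the annotation GENCODE M21, and the class names are TALON's. The deposited counts are not normalized; the aligner and read filters are not given in the sources used here. Models listed have at least 1 read, and a model has 1 set of ends, so cover of an exon or codon is that of the model.

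Counts were summed per annotated gene and the libraries compared by an exact two-sided binomial test on TMM-scaled totals (edgeR 4.0.16; factors 0.989 and 1.01; scipy 1.17.1), over genes with at least 10 reads, with a prior of 0.5 reads for log2 ratios and Benjamini-Hochberg adjustment. edgeR's exact test with a common dispersion was the alternative. Unannotated isoforms were matched by intron chain, and all unannotated single-exon models of a gene counted as 1 isoform. The reference transcript of a gene is its coding transcript with the most reads. Counts were also simulated with counting error alone, with 200 of 10754 genes changed 2-fold, all taken from those with at least 50 reads. Of the changed genes 137 were called, and 2 unchanged genes were. The simulation leaves out the spread between the libraries and changes in genes of fewer reads. It therefore gives no error rate for the real calls. All 10 members are named; from each list, up to 4 genes of highest mean CPM, those past the test and those with 0 reads in both libraries. A gene that this rule also names is not reported here. Hlf and some introns were named after their values were seen. The members and lists were chosen with earlier results of these data known. Alternatives were scaling by DESeq2 1.42.0, by library totals or by spike-in RNAs, other minimums and isoform tests, restricted model classes, pooled overlapping models and leaving out each library.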

Additional observations from a re-analysis of the deposited data

Results flagged for a closer look

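Unannotated antisense models, which enter no comparison above, lay opposite exons of the clock genes in both libraries. They held 6 reads in replicate 1 and 8 in replicate 2 over the 10 genes together, and it is this sum that brings them here. No single gene had more than 3 such reads in a library, the limit for a count of 0 at 1 gene: 2 and 2 at Clock, 0 and 3 at Nr1d1, 0 and 2 at Dbp, 2 and 0 at Arntl, 2 and 0 at Per3, and 0 and 1 at Per2.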

How the results depend on the processing

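The 3 clock genes past the binomial test became 1 under spike-in totals, 1 with annotated transcripts only (6 genes tested) and 0 in edgeR's exact test; over all genes, 1373 calls became 2486 under spike-in totals and 27 in edgeR's exact test. Spike-in totals split the calls into 259 higher in replicate 2 and 2227 higher in replicate 1, against 686 and 687. No clock gene's ratio changed direction under any alternative run. Per2 passed (adjusted p = 0.0243) when overlapping models were pooled. Doubling the smaller tail for the two-sided p, an alternative chosen after seeing the data, kept the count at 3 and gave 1286 calls over all genes. The 0 clock genes past the isoform test became 1, Dbp, in the chi-square test and with at least 50 reads in each library. Without genomic and ISM models 0 of 3 clock genes tested passed, and the 142 calls over all genes became 53. The summed clock level was 456 CPM, and leaving out a library gave 420 to 493 CPM. With annotated transcripts only it was 340 CPM, taken over the smaller total of reads on annotated transcripts, so the 2 sums are not on the same scale. The annotated share of 56.8% was 37.6% without Dbp, also chosen after seeing the data; leaving out a library gave 47.8 to 65.8%. Under spike-in totals the calls (higher in replicate 2, then in replicate 1) became 0 and 1 among other regulators, 0 and 2 among kinases and ligases, 0 and 2 among chromatin partners, 0 and 4 among output genes, and 3 and 0 among glucocorticoid genes. No paired analysis was possible because the series has 1 group. Per3, Per1 and Clock are limited by 5 to 33 reads in all.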

Other observations

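Of the unannotated intron chains of the 10 clock genes, 62 were in replicate 1 and 79 in replicate 2, and 24 were in both. Arntl had the most, 20 and 23 chains with 7 shared, while Cry1 (4 and 5) and Clock (5 and 5) shared 0. For 3 of the 24 shared chains the deposited class differed between the libraries, and the Arntl chain with the later acceptor of exon 13, which was NNC in replicate 1 and NIC in replicate 2, was one of them. In replicate 2, 5 of the 14 NIC models of the clock genes, with 23 of 36 NIC reads, used a splice site that M21 does not give to the gene. The same held in replicate 1 for 2 of 9 NIC models, with 4 of 14 NIC reads. The NIC and NNC shares of Arntl therefore cannot be compared between the libraries, whereas the junction counts can.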
